A study of Mus musculus with 17 samples.

Results

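The 6 genes described here encode the enzymes that add a phosphate to the translation factor eIF2alpha and the proteins that guide its removal. They are the kinase genes Eif2ak1, Eif2ak2, Eif2ak3 and Eif2ak4 and the phosphatase-regulator genes Ppp1r15a and Ppp1r15b. They were chosen by name and matched by symbol to Ensembl gene IDs, and all 6 were present among the 43430 IDs of both count tables. The samples were 17 RNA-seq libraries of flow-sorted alveolar type 2 (AT2) cells, which make the surfactant of the alveolus. The mice were of the C57BL/6J strain and 2 months old. The first experiment compared 4 libraries from mice given ISRIB with 4 from mice given vehicle, 24 hours after the dose, using 3 ng of RNA and a poly(A)-selecting kit. The second compared 5 libraries from mice sorted 14 days after bleomycin with 4 from naive mice, using 0.35 ng of RNA and a total-RNA kit. Bleomycin is a drug that injures the lung epithelium. All vehicle and ISRIB mice were otherwise naive, and the treatment label of all naive and bleomycin libraries was vehicle, with saline in their titles. Drug doses and the sex of the mice were not given in the labels. The labels number the replicates without saying whether each was a separate animal, so p-values measure the spread between these libraries.

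When eIF2alpha is phosphorylated it blocks its own exchange factor, eIF2B. General translation then falls, while a few mRNAs such as that of the transcription factor ATF4 are translated more, a programme called the integrated stress response. Each kinase answers a different signal. HRI (Eif2ak1) responds to heme shortage and mitochondrial stress, PKR (Eif2ak2) to double-stranded RNA, PERK (Eif2ak3) to unfolded protein in the endoplasmic reticulum (ER), and GCN2 (Eif2ak4) to amino acid shortage. GADD34 (Ppp1r15a, stress-induced) and CReP (Ppp1r15b, constitutive) bring protein phosphatase 1 to eIF2alpha. ISRIB binds eIF2B and restores its activity downstream of the kinases. Secretory cells such as AT2 cells make much protein in the ER and rely on this control. The counts measure transcripts, not kinase activity or eIF2alpha phosphorylation.

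The poly(A) table held 10493574 to 15727139 counts per library and the total-RNA table held 3295257 to 6333166. Ribosomal-RNA-like and mitochondrial genes took 3.64% to 4.61% and 22.1% to 33.5% of them. The AT2 identity was checked on 12 marker genes, all of which were detected. Their summed level was 229859 to 233529 CPM (counts scaled to a common library size) in the poly(A) libraries, 95470 to 99950 in naive and 56406 to 109009 in bleomycin libraries. Summed markers of macrophages stayed at or below 33.9 CPM, and those of neutrophils and lymphocytes at or below 1.88 CPM, in every library. All 6 genes passed the low-count filter in both tables, with 135 to 1573 counts per library in the poly(A) table and 41 to 564 in the total-RNA table.

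The promoters of 3 members are shown because they belong to the kinase that changed after bleomycin (Eif2ak4), to the kinase with a known interferon response (Eif2ak2) and to the stress-induced phosphatase regulator (Ppp1r15a). Each runs 5′ to 3′ on the gene's strand, from 120 bases before to 30 bases after a RefSeq transcription start (GRCm38.p6), whose first base is counted as 1. Capitals mark matches to the motifs named next.
Eif2ak4, chr2:118388497-118388646, plus strand: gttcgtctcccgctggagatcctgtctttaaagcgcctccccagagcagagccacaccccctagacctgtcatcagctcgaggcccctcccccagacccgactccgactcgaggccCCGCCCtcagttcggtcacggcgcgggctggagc
Eif2ak2, chr17:78882543-78882692, minus strand: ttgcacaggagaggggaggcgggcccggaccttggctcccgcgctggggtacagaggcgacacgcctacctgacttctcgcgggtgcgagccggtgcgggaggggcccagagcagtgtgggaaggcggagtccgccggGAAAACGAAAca
Ppp1r15a, chr7:45526239-45526388, minus strand: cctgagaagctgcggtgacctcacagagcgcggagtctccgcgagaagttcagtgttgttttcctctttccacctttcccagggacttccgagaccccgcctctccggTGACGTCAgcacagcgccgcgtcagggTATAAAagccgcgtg

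The motifs below were searched on both strands of 300 bases around each RefSeq start, 250 before and 50 after it, for the 5 members with an entry (6 starts, 2 of them of Eif2ak4; Ppp1r15b had none). The first Eif2ak4 window held the GC box GGGCGG 3 times, always on the opposite strand (CCGCCC at -192, -130 and -4), and 35.9% of all 32544 promoters of this length held that motif. The second Eif2ak4 window held none of the motifs. Eif2ak2 held the interferon-response core (GAAA, any 2 bases, GAAA) at position 19, a motif in 3.45% of promoters. Ppp1r15a held the same core at -220, outside the stretch shown, the cAMP-response element TGACGTCA at -12 (1.8% of promoters) and TATAAA at 16 (13.6%). The Eif2ak3 window held the CCAAT box 6 times, and the Eif2ak1 window held it once with 3 GC boxes; CCAAT occurred in 37.4% of promoters. No member window held the amino-acid-response letters TGATGNAA (3.91% of promoters) or the ER-stress element (CCAAT, any 9 bases, CCACG; 0.12%). The marked matches did not overlap each other. They describe letters in these windows and say nothing of binding.

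Levels were first set beside each other per kilobase of exon (CPM per kb), within each kit, since the tables were normalised separately. Ppp1r15b had the highest level in all 4 groups. In vehicle libraries it stood at 17.9 ± 0.86 CPM per kb (SD, n = 4). Eif2ak1 followed at 10.1 ± 0.36 and Eif2ak3 at 7.70 ± 0.57 CPM per kb, and none of these 3 ranges overlapped. Eif2ak2 (4.90 ± 0.37), Ppp1r15a (4.57 ± 0.54) and Eif2ak4 (4.404 ± 0.43 CPM per kb) overlapped their neighbours in the order. In vehicle cells the constitutive regulator Ppp1r15b was thus above every kinase, and Ppp1r15a was 0.256 ± 0.038 of its level (n = 4).

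In naive libraries of the total-RNA kit the order of the kinases differed. Ppp1r15b was at 14.8 ± 0.87 CPM per kb (n = 4) and Eif2ak4 was next at 10.8 ± 0.45. Eif2ak1 (8.71 ± 1.01), Eif2ak3 (8.68 ± 0.58), Ppp1r15a (7.41 ± 0.63) and Eif2ak2 (7.16 ± 0.34 CPM per kb) followed, each overlapping the next. By this measure Eif2ak4 was the lowest of the 6 with one kit and second with the other, in both cases in cells of uninjured mice. Kit, RNA input and group cannot be told apart in that difference. Dividing by the length of a principal transcript in place of all exons put Eif2ak4 at 15.4 ± 0.65 CPM per kb in naive libraries, overlapping Ppp1r15b at 14.8, and at 6.30 ± 0.62 in vehicle libraries, overlapping Eif2ak2 at 5.81 ± 0.44.

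ISRIB left no member called. The test was edgeR's quasi-likelihood test with Benjamini-Hochberg adjustment over all genes, called at an adjusted p under 0.05. It called 0 of 6 members, against 265 of 12054 genes tested (2.2%; 1.1% higher and 1.1% lower). DESeq2 and limma-voom also called 0 of 6, and 1 member had an unadjusted p under 0.05, against 16% of all genes. The plot of all libraries shows the members' levels in both experiments.

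**Figure D1:**
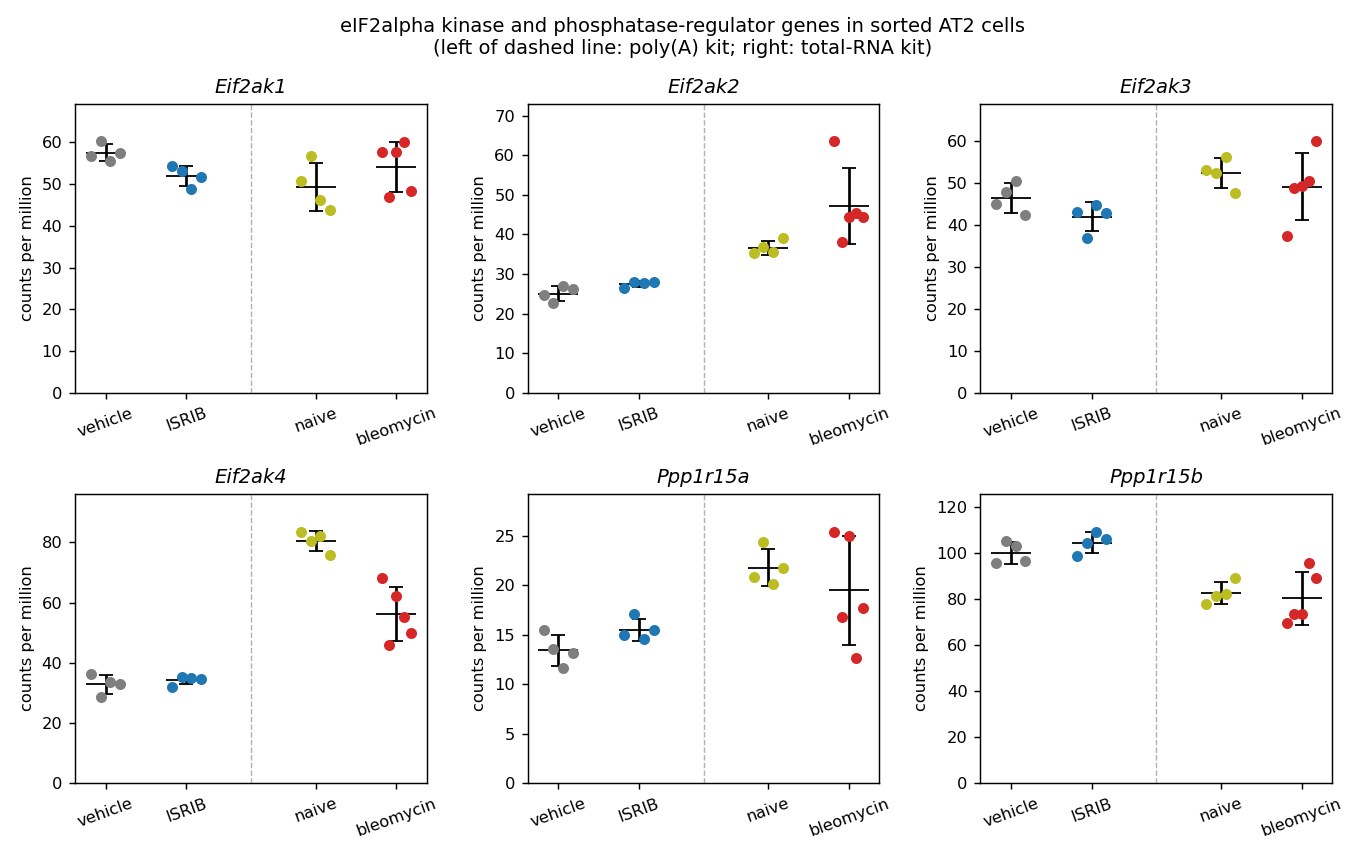
Level of each of the 6 genes in CPM (vertical axis, from 0) in vehicle, ISRIB, naive and bleomycin libraries. Points are libraries, horizontal lines are group means and error bars are SD (n = 4, 4, 4 and 5). All 5 bleomycin libraries lie below all 4 naive libraries for Eif2ak4, from 45.8 to 68.2 against 75.7 to 83.5.

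Eif2ak1, encoding the heme-regulated kinase, was the member nearest to a call after ISRIB. Its level was 56.7, 60.2, 55.5 and 57.5 CPM in the vehicle libraries and 54.3, 53.1, 48.8 and 51.6 CPM in the ISRIB libraries. All 4 ISRIB libraries lay below all 4 vehicle libraries, as for 4.39% of all genes; 4.26% were separated the other way and 8.65% in either direction. The log2 fold change was -0.14 (SE 0.06, 95% interval -0.27 to -0.02), with an unadjusted p of 0.0276 and an edgeR adjusted p of 0.239.

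Eif2ak3, encoding the ER-resident kinase, measured 44.9, 47.8, 50.3 and 42.4 CPM in vehicle and 43.2, 36.8, 44.7 and 42.8 CPM in ISRIB libraries. The groups overlapped, and ISRIB 2 was the single library below all vehicle libraries. Its log2 fold change was -0.15 (interval -0.31 to 0.01, edgeR adjusted p = 0.347). Eif2ak2 measured 24.6, 22.6, 26.9 and 26.1 CPM in vehicle and 26.4, 27.95, 27.6 and 27.9 CPM in ISRIB libraries. For this double-stranded-RNA sensor 3 of 4 ISRIB libraries were above all vehicle libraries, with a log2 fold change of 0.13 (interval -0.03 to 0.29, edgeR adjusted p = 0.439). How many of all genes had 3 or more above was not computed. Eif2ak4 measured 36.2, 28.5, 33.6 and 33.1 CPM in vehicle and 32.1, 35.3, 34.8 and 34.7 CPM in ISRIB libraries, so that the ISRIB values lay inside the vehicle range. Its log2 fold change was 0.06 (interval -0.11 to 0.22, edgeR adjusted p = 0.797) and turned to -0.004 without vehicle 2, the lowest vehicle library.

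The phosphatase regulators did not pass the test either. Ppp1r15a encodes GADD34, which brings protein phosphatase 1 to eIF2alpha during stress. Its level was 15.4, 13.6, 11.6 and 13.1 CPM in vehicle and 14.9, 17.1, 14.6 and 15.4 CPM in ISRIB libraries. The ranges overlapped at their edges, and the log2 fold change was 0.21 (interval -0.01 to 0.44, edgeR adjusted p = 0.340). Ppp1r15b measured 95.8, 105.5, 103.1 and 96.5 CPM in vehicle and 98.8, 104.3, 109.3 and 106.0 CPM in ISRIB libraries, with a log2 fold change of 0.06 (interval -0.06 to 0.18, edgeR adjusted p = 0.660). For CReP, the interval therefore held changes from 0.961-fold to 1.13-fold.

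After bleomycin, Eif2ak4 fell. It was the only member called, 1 of 6, beside 2304 of 11223 genes tested (20.5%; 9.31% called lower). A share of members of this size is near that background. GCN2, which it encodes, binds uncharged tRNA and starts the response to amino acid shortage. Its level was 83.5, 80.3, 82.0 and 75.7 CPM in naive libraries and 68.2, 45.8, 62.1, 55.1 and 49.7 CPM in bleomycin libraries. All 5 bleomycin libraries were below all 4 naive libraries, which was so for 9.35% of all genes (19.7% separated in either direction). The mean went from 80.4 ± 3.38 (n = 4) to 56.2 ± 9.09 CPM (n = 5), a fitted 0.698-fold level (95% interval 0.578 to 0.843). The log2 fold change was -0.52 (SE 0.13) with an edgeR adjusted p of 0.00835. It was called in all 15 alternatives, with adjusted p from 0.00217 to 0.0319. Since the libraries are bulk RNA, fewer cells carrying the transcript and less transcript per cell cannot be told apart.

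Other values moved with the Eif2ak4 difference. Of all genes tested 11.2% were called higher. Of the 12 AT2 markers 2 were called higher and 1 lower, with a median log2 fold change of -0.15. Limma-voom called 2 of these 12 higher and 3 lower. Of 12 markers of transitional epithelium, the keratin-rich state of AT2 cells leaving their identity, 11 were called higher. The 12 summed to 525 to 584 CPM in naive and 1171 to 1615 CPM in bleomycin libraries. Of 11 tested alveolar type 1 markers 8 were called higher, with sums of 1498 to 1771 and 2524 to 2960 CPM. Fibroblast markers summed to 5.07 to 13.05 and 19.6 to 131 CPM, with 3 of the 4 tested of 10 called higher, led by the collagen genes Col1a1, Col1a2 and Col3a1. Limma-voom called 1 of these 4 higher, and the Col1a2 call was lost in 8 of 9 leave-one-out fits and with DESeq2 (adjusted p = 0.126). Endothelial sums were 22.4 to 32.8 and 24.9 to 90.9 CPM, with 2 of 6 tested markers called higher (Cdh5 and Vwf; 0 by limma-voom). Airway sums, mostly Scgb1a1, were 451 to 884 and 499 to 993 CPM. Of 7 tested airway markers 3 were called higher, the ciliated-cell genes Foxj1 (2.27), Tekt1 (2.03) and Ccdc39 (1.72 on the log2 scale; 1 of them by limma-voom). A gene could pass the low-count filter through its bleomycin level alone, which can raise the called share of a list with untested genes. The part of these other cells and states in the Eif2ak4 difference was not tested. Bleomycin 2 had the lowest Eif2ak4 level and the highest fibroblast, transitional and airway sums of the bleomycin libraries. Without it the Eif2ak4 log2 fold change was -0.45 (edgeR adjusted p = 0.0182). Bleomycin 1, with the lowest AT2 sum of all 9 libraries (56406 CPM) and the second-highest fibroblast sum (58.9 CPM), had the highest Eif2ak4 level of the bleomycin libraries, 68.2 CPM. Bleomycin 3, with the highest AT2 sum, had 62.1 CPM. Without ribosomal-RNA-like and mitochondrial genes the value was -0.52 (edgeR adjusted p = 0.00859).

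Eif2ak2 lay higher after bleomycin without passing the test. It measured 35.2, 36.8, 35.4 and 39.0 CPM in naive and 63.5, 38.1, 44.3, 45.5 and 44.5 CPM in bleomycin libraries. Of the 5 bleomycin libraries 4 were above all naive libraries, and bleomycin 1 stood well above the rest. For 10.4% of all genes all 5 were above, a stricter pattern than that of Eif2ak2. The share of genes with 4 or more above was not computed. The log2 fold change was 0.36 (SE 0.15, interval 0.04 to 0.68), with an unadjusted p of 0.0307, a level that 33.3% of all genes reached, and an edgeR adjusted p of 0.107. Without bleomycin 1 it was 0.24 (edgeR adjusted p = 0.213), and without bleomycin 2 it was 0.43 (edgeR adjusted p = 0.0556).

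The other kinases were not called after bleomycin. Eif2ak1 measured 50.6, 56.8, 46.2 and 43.8 CPM in naive and 57.7, 46.9, 57.6, 60.02 and 48.5 CPM in bleomycin libraries. The groups overlapped, with a log2 fold change of 0.13 (interval -0.16 to 0.41, edgeR adjusted p = 0.555). Eif2ak3 measured 53.0, 52.3, 56.1 and 47.7 CPM in naive and 37.3, 48.7, 49.2, 50.4 and 59.9 CPM in bleomycin libraries. The PERK transcript was thus both lowest and highest in bleomycin libraries, bleomycin 1 and bleomycin 5, and its log2 fold change was -0.09 (interval -0.38 to 0.21, edgeR adjusted p = 0.716).

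Neither phosphatase regulator was called after bleomycin. Ppp1r15a measured 20.8, 24.4, 20.1 and 21.8 CPM in naive and 25.4, 16.8, 24.9, 12.7 and 17.7 CPM in bleomycin libraries. Of the bleomycin libraries 3 were below and 2 above every naive library, and the log2 fold change was -0.15 (interval -0.59 to 0.28, edgeR adjusted p = 0.655). Ppp1r15b measured 77.8, 81.4, 82.3 and 89.4 CPM in naive and 69.6, 73.4, 73.7, 95.9 and 89.3 CPM in bleomycin libraries. Its libraries also fell on both sides, 3 below and 1 above the naive range, with a log2 fold change of -0.04 (interval -0.30 to 0.22, edgeR adjusted p = 0.840). Bleomycin 4 had the lowest Ppp1r15a and the highest Ppp1r15b level, while in bleomycin 2 both were below the naive range. The ratio of Ppp1r15a to Ppp1r15b per kb ranged from 0.252 to 0.695 in bleomycin and from 0.464 to 0.570 in naive libraries.

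**Figure D2:**
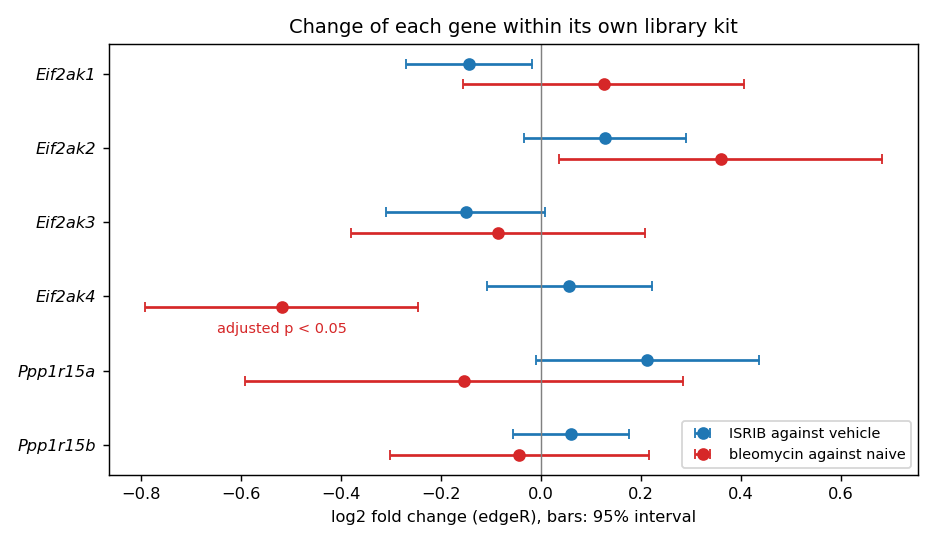
Log2 fold change of each gene (horizontal axis) from edgeR for ISRIB against vehicle and bleomycin against naive, with 95% intervals as bars. Eif2ak4 after bleomycin, at -0.52, is the only value with an adjusted p under 0.05. The intervals of bleomycin are wider than those of ISRIB for all 6 genes.

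The make-up of the kinase transcripts was described as shares of their summed level per kb, without a test, since the shares come from the same values. The sum itself was 35.3 ± 1.37 CPM per kb in naive (n = 4) and 34.5 ± 2.92 in bleomycin libraries (n = 5). Eif2ak4 made up 29.4% to 31.3% of it in naive libraries and 19.7% to 24.1% in bleomycin libraries. The Eif2ak2 share was 19.2% to 22.8% in naive and 24.5% to 32.7% in bleomycin libraries. The ratio of Eif2ak4 to Eif2ak2 per kb was 1.33 to 1.63 in naive and 0.737 to 0.961 in bleomycin libraries. Whether Eif2ak4 fell below Eif2ak2 after bleomycin depended on the length used: per kb of principal transcript the bleomycin levels were 10.78 ± 1.74 for Eif2ak4 and 10.94 ± 2.22 CPM per kb for Eif2ak2, with overlapping ranges. In the poly(A) libraries the Eif2ak4 share was 14.3% to 17.9% with vehicle and 16.4% to 18.4% with ISRIB. There Eif2ak1 had the largest share in every library. Whether Eif2ak4 responded differently to ISRIB and to bleomycin was not tested, since no fit spanned the kits.

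**Figure D3:**
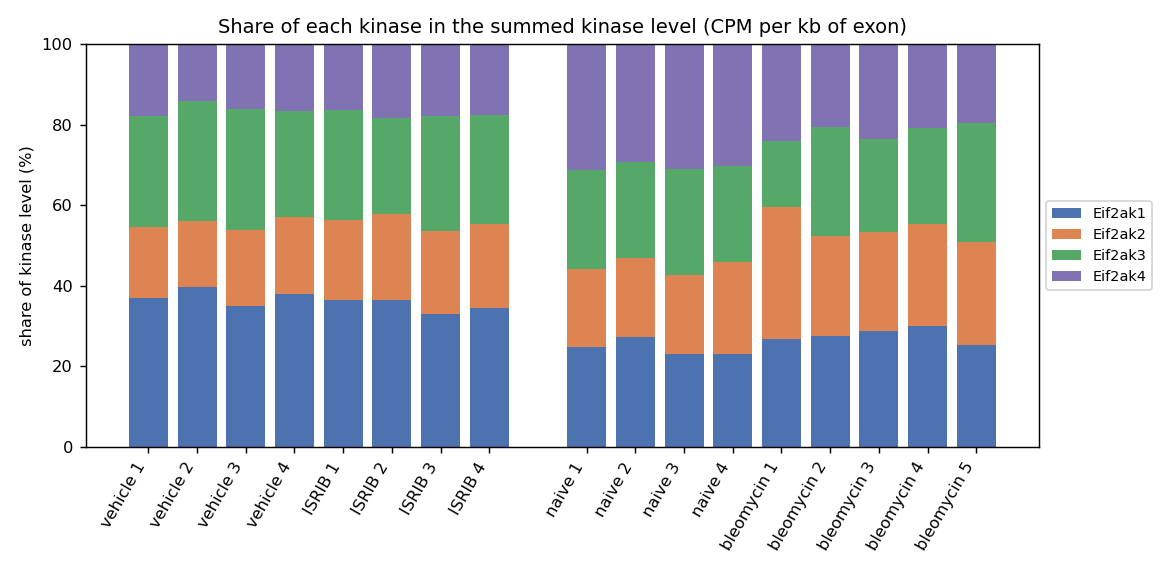
Share of each kinase gene (vertical axis, percent) in the summed level of the 4 kinase genes, in CPM per kb of exon, for each of the 17 libraries. The Eif2ak4 segment at the top of each bar takes 29.4% to 31.3% in naive, 19.7% to 24.1% in bleomycin and 14.3% to 18.4% in vehicle and ISRIB libraries.

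The proteins that act on the kinases were followed in a list of 12 cofactors and inhibitors, all tested. After bleomycin 3 were called higher and 2 lower (41.7%, against 20.5% of all genes; median log2 fold change 0.15). Hspa5, encoding the ER chaperone BiP that holds PERK inactive, went from 461 ± 48.8 to 757.5 ± 36.4 CPM, a log2 fold change of 0.72 (edgeR adjusted p = 1.99e-04). The chaperone genes Hsp90ab1 (0.76, edgeR adjusted p = 0.00451) and Hspa8 (0.60, edgeR adjusted p = 0.0127) also rose; the Hspa8 call was lost without naive 1 or naive 2. Impact, whose product competes with GCN2 for its activator GCN1, fell by 0.72 on the log2 scale (edgeR adjusted p = 0.0316), and 6 of 9 leave-one-out fits lost this call. Oma1, the mitochondrial protease upstream of HRI, fell by 0.57 (edgeR adjusted p = 0.0238), lost without naive 1, naive 3 or bleomycin 2. Gcn1l1, encoding GCN1 itself, measured 75.3 ± 5.32 in naive and 90.3 ± 11.6 CPM in bleomycin libraries (edgeR adjusted p = 0.144).

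After ISRIB the same list held 1 gene called higher and 1 lower (16.7%, against 2.2% of all genes; median -0.09), while 7 of 12 had an unadjusted p under 0.05, against 16% of all genes. Impact went from 15.1 ± 1.67 to 11.1 ± 1.07 CPM (log2 fold change -0.44, edgeR adjusted p = 0.0496), a call that 6 of 8 leave-one-out fits lost and limma-voom did not make (adjusted p = 0.0582). Hspa8 went from 482 ± 58.8 to 641 ± 103 CPM (0.41, edgeR adjusted p = 0.0372), a call lost in 5 of 8 such fits and with DESeq2 (adjusted p = 0.0845). Hspa5 was at 748 ± 57.7 CPM with vehicle and 642 ± 74.2 CPM with ISRIB (edgeR adjusted p = 0.141).

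The target of these kinases is a subunit of eIF2, and eIF2B is the factor on which ISRIB acts. Of the 9 genes of eIF2 and eIF2B, ISRIB left 0 called by edgeR, DESeq2 or limma-voom. By edgeR 1 had an unadjusted p under 0.05, against 16% of all genes. That gene was Eif2b4, the delta subunit of eIF2B, at 19.2 ± 1.95 CPM with vehicle and 24.1 ± 2.21 CPM with ISRIB (log2 fold change 0.32, edgeR adjusted p = 0.0929). After bleomycin 3 of 9 were called higher and 0 lower (33.3%, against 20.5% of all genes, median 0.53). Limma-voom called 2 of the 9 higher. Eif2s2, the beta subunit of eIF2, went from 31.7 ± 4.26 to 53.2 ± 11.4 CPM (0.74, edgeR adjusted p = 0.00410). Eif2s1, encoding eIF2alpha itself, went from 31.8 ± 5.58 to 50.9 ± 14.1 CPM (0.67, edgeR adjusted p = 0.0167), a call lost without naive 3 or naive 4. Eif2b5, the catalytic subunit of eIF2B, rose by 0.40 (edgeR adjusted p = 0.0453), a call that 7 of 9 leave-one-out fits lost. Of the catalytic subunits of protein phosphatase 1, Ppp1ca rose after bleomycin (0.45, edgeR adjusted p = 0.0228), lost without naive 2, 3 or 4, and Ppp1cb and Ppp1cc were not called; ISRIB left 0 of these 3 called by edgeR, DESeq2 and limma-voom, with 0 at an unadjusted p under 0.05.

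Downstream, 36 of 43 listed ATF4 and CHOP target genes were tested after bleomycin. Of these 10 were called higher and 2 lower (33.3%, against 20.5% of all genes, median 0.30). Limma-voom called 7 higher and 2 lower. A gene could pass the low-count filter through its bleomycin level alone, which can raise this share and median. Mthfd2 and Psat1, enzymes of one-carbon and serine synthesis, had log2 fold changes of 1.61 and 1.47 (edgeR adjusted p = 0.0188 and 0.00880). Sesn2, a stress-induced inhibitor of mTORC1, rose by 0.85 (0.00246), and Shmt2, a mitochondrial serine enzyme, by 0.78 (0.0470, lost in 7 of 9 leave-one-out fits). The Mthfd2 call was lost without naive 1 or naive 3, and limma-voom did not call Psat1 (adjusted p = 0.0819). The stress gene Nupr1 fell by 0.82 (edgeR adjusted p = 0.00119) and the ER-degradation gene Herpud1 by 0.72 (edgeR adjusted p = 0.00334). After ISRIB, Slc3a2 (0.35) and Herpud1 (0.35) rose and Psat1 fell by 0.82 (edgeR adjusted p = 0.0137, 0.0213 and 0.00945). They were the only edgeR calls among 39 tested (7.69%, against 2.2% of all genes, median 0.02). DESeq2 called 5 of the 39 higher and 1 lower. By edgeR 17 had an unadjusted p under 0.05, against 16% of all genes. The Slc3a2 call was lost without vehicle 1, and the Herpud1 call without vehicle 1, vehicle 2 or ISRIB 3.

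The other ER stress sensors and factors, 7 genes, included 3 called after bleomycin (42.9%, against 20.5% of all genes, median -0.14). Creb3l1 fell from 49.3 ± 4.31 to 22.3 ± 4.82 CPM (-1.15, edgeR adjusted p = 1.24e-04), Atf6b rose by 0.72 (edgeR adjusted p = 0.00626) and Creb3 by 0.57 (edgeR adjusted p = 0.0281, lost in 4 of 9 leave-one-out fits). After ISRIB 0 of 7 were called by edgeR and limma-voom and 1, lower, by DESeq2. By edgeR 2 had an unadjusted p under 0.05, against 16% of all genes.

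Interferon-stimulated genes, among which Eif2ak2 is usually counted, were followed in a list that leaves it out. After bleomycin 23 of the 40 listed passed the low-count filter. Of these 12 were called higher and 0 lower (52.2%, median 0.72), against 11.2% called higher of all genes. Limma-voom called 8. A gene could pass the filter through its level in the bleomycin libraries alone, which can raise this share and median. The largest log2 fold changes were 3.07 for Usp18, 2.27 for Irf7, 1.70 for Oasl2 and 1.57 for Xaf1 (edgeR adjusted p = 0.00439, 0.00453, 0.00364 and 0.0332). These 4 genes were low, at 10.02 CPM or less in the mean of either group, and the Xaf1 call was lost in 7 of 9 leave-one-out fits. Beside them the Eif2ak2 value was 0.36, not called. After ISRIB 0 of 24 tested were called by edgeR, DESeq2 and limma-voom. By edgeR 4 had an unadjusted p under 0.05, against 16% of all genes.

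Early-response genes, which can be induced while tissue is being dissociated, also moved in both experiments. After bleomycin 6 of 22 were called lower and 3 higher (40.9%, against 20.5% of all genes, median -0.10). Limma-voom called 6 lower and 1 higher. The largest falls were those of Dusp1 (-1.21), Ier2 (-1.03) and Fos (-0.95). After ISRIB 3 were called higher and 3 lower (27.3%, against 2.2% of all genes, median -0.02). Among them were Hspa1b at 2.71, Hspa1a at 2.57 and Egr1 at -0.93. Limma-voom called neither Hspa1a nor Hspa1b; the Hspa1a call was also lost with DESeq2 (adjusted p = 0.0603) and in 4 of 8 leave-one-out fits, and the Hspa1b call in 2 of 8. Among the cell markers, ISRIB left 2 of 12 transitional ones called lower and 0 higher (16.7%, against 2.2% of all genes). It also left 1 of 12 AT2 and 1 of 4 tested macrophage markers called lower, the latter not by DESeq2. Of the tested alveolar type 1, fibroblast, endothelial and airway markers 0 were called after ISRIB. The part of the early-response genes and of these markers in the members' values was not tested. Over all genes tested the median log2 fold change was within 0.05 of 0 in both comparisons. The scaling of the libraries brings this median near 0, so it cannot show a shift of all genes.

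**Figure D4:**
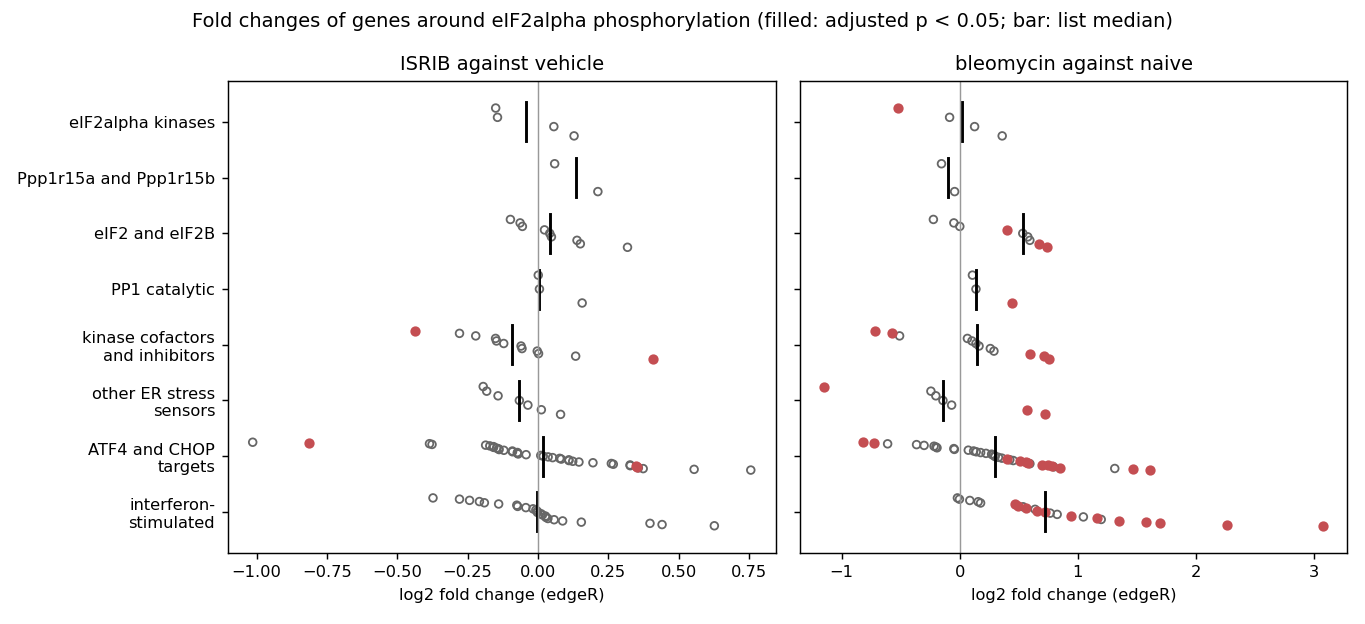
Log2 fold change (horizontal axis, edgeR) of every tested gene in 8 lists around eIF2alpha phosphorylation, for ISRIB against vehicle and bleomycin against naive; the horizontal scales differ. Filled points have an adjusted p under 0.05 and vertical bars are list medians, which after bleomycin are 0.72 for interferon-stimulated and 0.53 for eIF2 and eIF2B genes.

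The genes most like each member across libraries were named as a description, by the mean of Pearson r of log2 CPM over 8 poly(A) and over 9 total-RNA libraries, among 8817 genes. The libraries of each table share a kit and span both of its groups, so these values hold any group difference too. For Eif2ak4 they were Rrnad1 (mean r 0.88), the RNA helicase gene Ddx17 (0.86) and Pbx2 (0.83). For Eif2ak2 they were the tight-junction gene Tjp1 (0.89), Gramd2 (0.88) and Zbtb18 (0.86). Eif2ak1 was most like Pes1, Ap2a2 and Sh3bp4 (0.82 to 0.85), and Eif2ak3 most like the AT2 phosphate-transporter gene Slc34a2, Tkt and Gdpgp1 (0.81 to 0.84). Ppp1r15a was most like Stk10, Eva1b and Npepl1 (0.79 to 0.82), and Ppp1r15b most like Ripk1, Gps2 and Hook3 (0.83 to 0.86).

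The members lie on 6 chromosomes in GENCODE M21 (GRCm38) and are protein-coding. Eif2ak4 (ENSMUSG00000005102) is at chr2:118388618-118475234, Eif2ak1 (ENSMUSG00000029613) at chr5:143817788-143904251, Eif2ak2 (ENSMUSG00000024079) at chr17:78852564-78882573 and Eif2ak3 (ENSMUSG00000031668) at chr6:70844515-70905245. Ppp1r15a (ENSMUSG00000040435) is at chr7:45522916-45526268 and Ppp1r15b (ENSMUSG00000046062) at chr1:133131143-133139783. Eif2ak4 shares no exon bases with another gene. The other 5 share 12 to 640 exon bases with a gene on the opposite strand, and no source used here says whether counting used strand, so such reads cannot be told apart. The partner with the most counts, Aimp2 beside Eif2ak1, had 57 to 105 counts per poly(A) library and 8 to 30 per total-RNA library.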

How the data were processed

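Raw read counts per gene, whole numbers in 2 tables of 43430 Ensembl IDs, were deposited by the authors, 1 table per library kit. Per the submitters' processing notes the tools included bcl2fastq 2.19.1, FastQC, Trimmomatic 0.36, STAR 2.6.0 and HTSeq 0.11.2 with mm10; settings, annotation and strand use are not stated there. All 17 libraries were used, grouped by treatment, condition and kit, and no fit spanned both kits.

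From the counts, edgeR 4.0.16 (R 4.3.3) was run within each kit: genes were kept by filterByExpr (minimum count 10, minimum total 15), scaled by TMM and tested two-sided by quasi-likelihood (glmQLFTest), with group as the only term and Benjamini-Hochberg adjustment over 12054 and 11223 genes. CPM used TMM-scaled library sizes, except marker sums, which used total counts. Per-length levels used the union of GENCODE M21 exons. SE is the absolute log2 fold change before edgeR's shrinkage, divided by the square root of F. Intervals are 95% and are centred on the shrunken log2 fold changes given. The total-RNA libraries held fewer counts, and the part of depth in their wider intervals was not tested. Alternatives were RLE scaling, DESeq2 1.42.0, limma-voom (limma 3.58.1), no filter, the replicate number as a block, leaving out each library, removing ribosomal-RNA-like and mitochondrial genes (bleomycin) and, chosen after seeing the data, a principal-transcript length. The procedure was tested on simulated data. The first version of that test exceeded its limit on false calls at the ISRIB design, and more draws were then used. Pooled over these draws, the false-call rate at the ISRIB design was within the limit but still somewhat over the nominal level. At the bleomycin design few genes of moderate change were recovered, so members without a call there may still have changed.

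The members and lists were chosen with earlier results of these data known. Named genes were all 6 members, up to 4 called genes per list, direction and comparison with the largest change, any gene of the eIF2, phosphatase and cofactor lists, and the 3 genes most like each member. The fibroblast, endothelial and airway marker genes named fall outside this rule and were chosen after their values were seen.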

Additional observations from a re-analysis of the deposited data

How the results depend on the processing

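Across 168 alternative values of the 12 member results, 0 calls changed and 166 kept their direction. The exceptions were Eif2ak4 after ISRIB without vehicle 2 (-0.004133) and Ppp1r15b after bleomycin without bleomycin 1 (0.006034), both near 0; with 1 library left out these results ran from -0.004133 to 0.1056 and from -0.1058 to 0.006034. Leave-one-out log2 fold changes of Eif2ak4 after bleomycin ran from -0.59 to -0.45. The number of genes called after ISRIB was 265, against 406 with DESeq2, 648 with no low-count filter and 86 to 269 with 1 library left out (86 without vehicle 1, 102 without vehicle 2, 159 without ISRIB 4); the cause was not tested. After bleomycin the number was 2304, and 1554 to 2584 with 1 library left out. Limma-voom called 1024 higher and 1178 lower, where edgeR called 1259 and 1045. With the replicate number as a block 277 and 2187 genes were called and no member's call changed. Same-numbered libraries did not deviate together (r from -0.12 to 0.10), so the numbers are not taken as a pairing. With the principal-transcript length, chosen after seeing the data, vehicle levels were 13.29 (Eif2ak1), 5.81 (Eif2ak2), 10.28 (Eif2ak3) and 6.301 (Eif2ak4) CPM per kb and naive levels 11.42, 8.489, 11.59 and 15.42, because those transcripts are shorter than the union of exons. The total-RNA libraries are shallower and more variable (common coefficient of variation 21.1%, against 7.66% in the poly(A) libraries), and the members' bleomycin intervals are wider.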
